A study of Mus musculus with 2 samples.

Results

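The splicing factor genes described here are the 69 protein-coding genes, of 21887 on the mouse chromosomes used (19 autosomes, X and Y; RefSeq annotation of GRCm38.p6, which is mm10), whose symbols begin with Srsf, Hnrnp, Sf3a, Sf3b, Snrp, Prpf or U2af. They were taken by name alone, with no measured value, and comprise 11 SR protein genes, 21 hnRNP genes, 3 U2af genes, 9 SF3A and SF3B genes, 12 Snrp genes and 13 Prpf genes. One of them, Hnrnpa1l2-ps2, is named as a pseudogene and typed protein-coding. Genes named Snrnp, such as Snrnp70, do not match these prefixes and are counted separately below. PHLPP1, a protein phosphatase known for dephosphorylating the kinase AKT, was mapped by CUT&Tag, in which an antibody directs a transposase to cut and tag DNA near its target. The cells were wild-type primary alveolar macrophages of mouse lavage fluid, the resident phagocytes of the air spaces, with 1 library from cells given IL-4, a cytokine of type 2 immunity (20 ng/ml for 4 h), and 1 from untreated cells. The labels name no strain, sex, age or number of mice, and each group held 1 library, so the values describe these 2 libraries and carry no test of the treatment. No library with a control antibody was analysed here.

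Splicing removes introns from pre-mRNA in the spliceosome, a machine of small nuclear ribonucleoproteins (snRNPs) that recognises the ends of each intron and the branch point. SR proteins bind exons and generally promote their inclusion, while hnRNPs coat nascent transcripts and often block splice sites. SR proteins are controlled by phosphorylation of their arginine-serine repeats, by kinases that include SRPK and CLK. Most of the genes, though not all, are expressed in nearly all cells, and macrophages adjust splicing when they are activated.

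The authors deposited 226476 regions for the IL-4 library and 165968 for the untreated library. The depth in reads is not stated. The fold enrichment given below is the authors' own value for a region, and it is not scaled between libraries. It is read here as the pileup at the summit over a background, each with 1 added. Whether that background came from the same library or from a control is not given. Fold and p together give back the pileup, called here the number of fragments over the summit. The constant background was 15.9 fragments in the IL-4 library and 13.9 in the untreated library, a ratio of 1.14. Intervals cover counting error only. As a check on the cell label, 13 of 14 alveolar macrophage marker genes had a region within 1 kb of a gene end in the IL-4 library and 12 in the untreated library, against 5 and 3 of 8 lymphocyte genes. All 8 lung epithelium genes had one in the IL-4 library and 5 in the untreated library. The numbers were 5 and 3 of 8 for neutrophil genes, and 5 and 2 of 8 for endothelium and fibroblast genes. Of all protein-coding genes, 70.4% had such a region in the IL-4 library and 57.5% in the untreated library. With every lung epithelium gene marked in the IL-4 library, these counts cannot settle the cell label. A region is no measure of expression.

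The promoters of 7 members show what the results below turn on. Hnrnpc had the highest fold of all members in both libraries, Srsf2 the highest of the SR proteins, and U2af1l4 the highest ratio of pileups between the libraries. Sf3a3 and Hnrnpm had their regions in the IL-4 library alone, and Snrpf and Srsf12 had none in either library. Each sequence runs 5′ to 3′ on the gene's strand over 300 bases, 250 before the start of the transcript and 50 from it on (RefSeq, GRCm38.p6). Capitals mark letters searched for on either strand. Those of ETS factors are CCGGAAG and those of NRF1 are GCATGCGC. SP and KLF factors have GGGCGG, the factor NFY has CCAAT, and the TATA box is TATAAA. All 7 are rich in CG pairs, with 20 in Snrpf, 22 in Hnrnpc and Sf3a3, 25 in U2af1l4, 26 in Srsf12, 27 in Hnrnpm and 39 in Srsf2.
Hnrnpc: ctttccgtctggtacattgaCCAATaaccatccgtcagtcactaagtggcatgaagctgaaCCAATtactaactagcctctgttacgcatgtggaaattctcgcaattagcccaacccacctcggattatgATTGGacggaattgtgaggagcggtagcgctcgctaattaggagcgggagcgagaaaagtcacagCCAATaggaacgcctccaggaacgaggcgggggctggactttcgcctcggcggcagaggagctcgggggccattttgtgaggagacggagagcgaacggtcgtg
Srsf2: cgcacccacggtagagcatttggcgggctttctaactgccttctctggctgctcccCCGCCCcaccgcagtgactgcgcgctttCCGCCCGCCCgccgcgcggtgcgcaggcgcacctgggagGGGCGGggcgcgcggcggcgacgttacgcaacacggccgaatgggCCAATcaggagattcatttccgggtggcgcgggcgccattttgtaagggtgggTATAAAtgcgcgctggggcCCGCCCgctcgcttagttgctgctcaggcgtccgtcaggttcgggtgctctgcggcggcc
U2af1l4: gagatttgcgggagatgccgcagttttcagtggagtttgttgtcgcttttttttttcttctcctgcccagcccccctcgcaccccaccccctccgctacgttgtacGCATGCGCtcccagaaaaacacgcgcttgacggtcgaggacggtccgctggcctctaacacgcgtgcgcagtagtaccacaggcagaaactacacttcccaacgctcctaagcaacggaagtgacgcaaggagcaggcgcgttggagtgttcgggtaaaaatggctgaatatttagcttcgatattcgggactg
Sf3a3: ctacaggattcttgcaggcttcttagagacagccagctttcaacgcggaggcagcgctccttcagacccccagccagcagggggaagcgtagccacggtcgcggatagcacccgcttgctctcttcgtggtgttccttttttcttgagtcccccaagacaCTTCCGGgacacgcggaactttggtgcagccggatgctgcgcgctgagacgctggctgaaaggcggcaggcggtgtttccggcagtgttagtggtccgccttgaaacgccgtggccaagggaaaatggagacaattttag
Hnrnpm: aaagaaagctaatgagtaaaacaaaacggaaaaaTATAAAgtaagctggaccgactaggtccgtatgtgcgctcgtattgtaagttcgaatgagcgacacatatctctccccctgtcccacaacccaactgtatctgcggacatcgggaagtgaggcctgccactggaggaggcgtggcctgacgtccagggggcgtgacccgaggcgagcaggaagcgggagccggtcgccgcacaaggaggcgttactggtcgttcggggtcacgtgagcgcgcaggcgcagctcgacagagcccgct
Snrpf: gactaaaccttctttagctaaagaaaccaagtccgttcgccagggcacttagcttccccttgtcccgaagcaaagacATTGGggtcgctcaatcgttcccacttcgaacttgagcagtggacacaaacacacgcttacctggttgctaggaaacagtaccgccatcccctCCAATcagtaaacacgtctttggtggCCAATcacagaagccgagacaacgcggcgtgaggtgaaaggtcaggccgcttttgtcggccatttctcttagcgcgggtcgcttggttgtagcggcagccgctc
Srsf12: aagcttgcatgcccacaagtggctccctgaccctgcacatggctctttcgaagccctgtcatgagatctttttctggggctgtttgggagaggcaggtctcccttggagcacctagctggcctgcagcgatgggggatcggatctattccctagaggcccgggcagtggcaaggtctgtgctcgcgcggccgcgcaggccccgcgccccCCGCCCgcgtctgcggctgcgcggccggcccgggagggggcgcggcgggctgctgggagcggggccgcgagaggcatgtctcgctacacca
The Hnrnpc promoter holds CCAAT in 4 places and that of Snrpf in 3, and the Srsf2 promoter holds GGGCGG in 5. CCAAT thus stood in a promoter with a strong region (Hnrnpc) and in one without (Snrpf), and GGGCGG likewise (Srsf2 and Srsf12). The 7 promoters lie on the minus strand of chromosome 14 (52103972 to 52104271, Hnrnpc), chromosome 11 (116853045 to 116853344, Srsf2), chromosome 17 (33685409 to 33685708, Hnrnpm) and chromosome 10 (93589609 to 93589908, Snrpf), and on the plus strand of chromosome 7 (30563090 to 30563389, U2af1l4) and chromosome 4 (124714611 to 124714910, Sf3a3, and 33209022 to 33209321, Srsf12).

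Nearly every splicing factor gene carried a region, and nearly always at its start. Over the gene body and 1 kb each side, 66 of 69 members (95.7%, exact 95% interval 87.8 to 99.1) had a region in the IL-4 library and 59 (85.5%, 75 to 92.8) in the untreated library. Of all protein-coding genes, 83.3% and 75.5% had one. Members were marked at the gene start, within 1 kb, in 57 of the 60 with a RefSeq start (95%, 86.1 to 99.0) in the IL-4 library and 52 (86.7%, 75.4 to 94.1) in the untreated library. The shares of all 17492 genes with a start were 66.2% and 55.2%. Within 1 kb of either end of the gene, 64 and 56 of the 69 members had a region, against 70.4% and 57.5% of all genes. At a fold of 3 or more over the gene body, 60 members (87.0%) were marked in the IL-4 library and 46 (66.7%) in the untreated library, against 53.8% and 36.8% of all genes. The median fold of the strongest region was 4.79 for the members against 3.67 for all genes in the IL-4 library, and 3.55 against 2.95 in the untreated library. These are descriptions of 2 libraries, and genes are not replicates.

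Other splicing genes, proteasome genes and ribosomal protein genes had similar shares. The 88 other splicing genes counted here, such as Snrnp70 and the Lsm, Clk and Rbm genes, but also factors restricted to some tissues, such as Nova1 and Esrp1, had a region at the start in 64 of 68 (94.1%, 85.6 to 98.4) in the IL-4 library and 57 (83.8%, 72.9 to 91.6) in the untreated library. Proteasome genes had one in 40 and 35 of 43 (93.0%, 80.9 to 98.5, and 81.4%, 66.6 to 91.6). Ribosomal protein genes had one in 128 and 114 of 144 (88.9%, 82.6 to 93.5, and 79.2%, 71.6 to 85.5). The intervals of these families overlapped those of the splicing factor genes in both libraries.

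**Figure D1:**
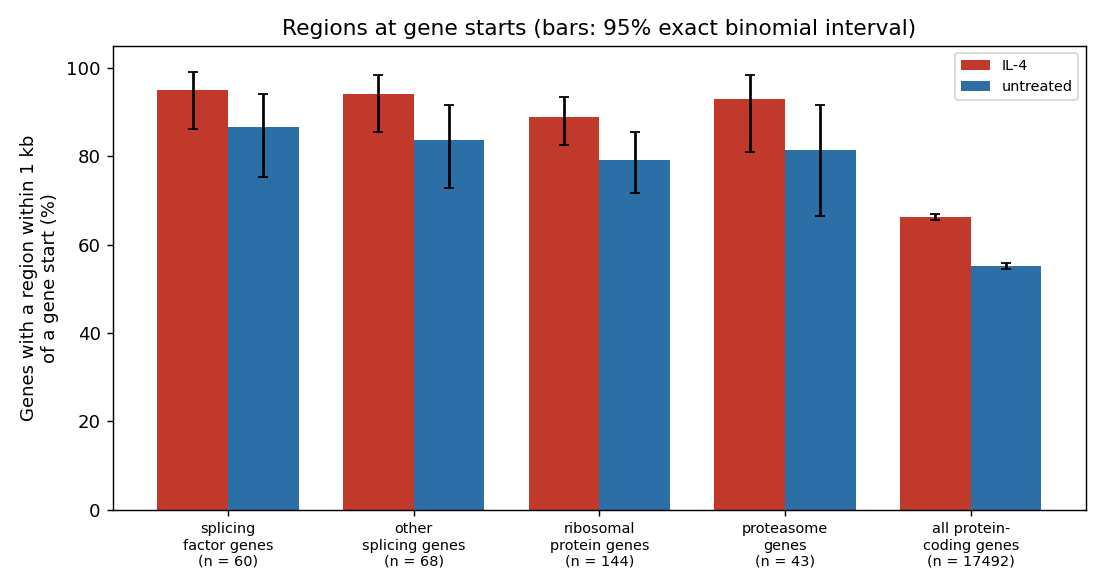
Share of genes (%) with a region within 1 kb of a gene start, for the splicing factor genes and other gene sets, with IL-4 bars left of untreated bars and exact 95% binomial intervals (counting error only). The splicing factor genes reached 95% and 86.7%, the intervals of the other 3 families overlap theirs, and all protein-coding genes reached 66.2% and 55.2%.

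The strongest region of a member usually sat just upstream of the start. Of the 57 members with both a region and a start in the IL-4 library, 53 (93.0%) had the summit of the strongest region within 1 kb of a start, against 54.5% of 14546 genes. In the untreated library it was 48 of 52 (92.3%), against 54.1% of 13210 genes. Among these, 40 summits lay upstream and 13 downstream in the IL-4 library, and 38 and 10 in the untreated library. The median offset was -94 bp (quartiles -159 to -4) in the IL-4 library and -104 bp (quartiles -168 to -23.8) in the untreated library, where negative values are upstream. Over all genes with the summit within 1 kb of a start the medians were also just upstream, -51 bp in the IL-4 library and -53 bp in the untreated library. The exceptions were Prpf4b, Prpf8, Snrpn and Hnrnpu in the IL-4 library and Prpf4b, Srsf4, Snrpn and Hnrnpu in the untreated library. Prpf4b, a kinase of splicing proteins, had its strongest summit at -1151 bp from the start in the IL-4 library and -1152 bp in the untreated library. Hnrnpu, the scaffold attachment factor, had its strongest summit 1226 and 1139 bp downstream, and a weaker one at the start.

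**Figure D2:**
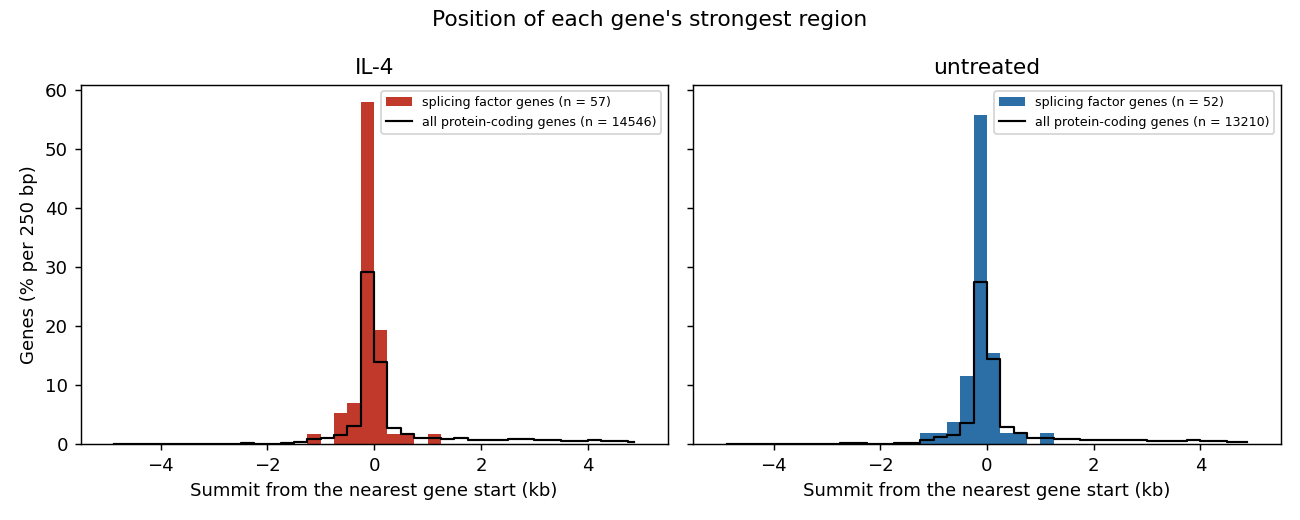
Distance in kb from the nearest gene start to the summit of each gene's strongest region (negative is upstream), as a percentage of genes per 250 bp, for splicing factor genes (bars) and all protein-coding genes (line), with IL-4 in the left panel and untreated in the right. Of the splicing factor genes, 53 of 57 (IL-4) and 48 of 52 (untreated) lie within 1 kb; genes farther than 5 kb are outside the axis.

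Counted over whole genes, starts included, the members carried fewer regions per length than all genes. The IL-4 library placed 127 regions over the 69 genes and the untreated library 90, or 0.733 and 0.520 per 10 kb, against 1.11 and 0.75 per 10 kb over all genes. Without Snrpn, whose annotated length is 467683 bp, the members' densities were 0.927 and 0.626. A single region was all that 33 of the 69 members had in the IL-4 library and 39 in the untreated library. The same held for 4432 and 6021 of all 21887 genes, and for 94 and 106 of 175 ribosomal protein genes. Over members with a start, regions with a summit within 1 kb of it had a median fold of 4.33 (72 regions) in the IL-4 library and 3.29 (59 regions) in the untreated library. Those farther away had 2.43 (41 regions) and 2.21 (22 regions). The strongest regions were also broad, with a median width of 723 bp in the IL-4 library and 508 bp in the untreated library, against 545 and 460 bp for the strongest regions of all genes. Hnrnpf and Hnrnpl had the most regions after Snrpn, 5 each in the IL-4 library and 3 each in the untreated library.

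The promoters of the members are rich in CG pairs, and this moved with the presence of a region across all genes. The median number of CG pairs in the 300 bases was 25.5 for the members against 15 for all genes, and 56 of 60 members had 16 or more. Among all genes a region at the start became more frequent with CG pairs. In the IL-4 library it was found at 31.6% of genes with 0 to 4 pairs, 64.6% with 5 to 15, 86.2% with 16 to 25 and 87.4% with 26 to 67. The same groups of genes gave 21.8%, 50.4%, 74.5% and 78.9% in the untreated library. Members with 16 to 25 pairs had a region in 25 of 26 (IL-4) and 23 of 26 (untreated), and those with 26 to 67 in 29 and 26 of 30. This split was chosen after the values were seen. Set against genes of similar CG content, the excess of the members was thus smaller than against all genes, and how much of it base composition accounts for was not tested.

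**Figure D3:**
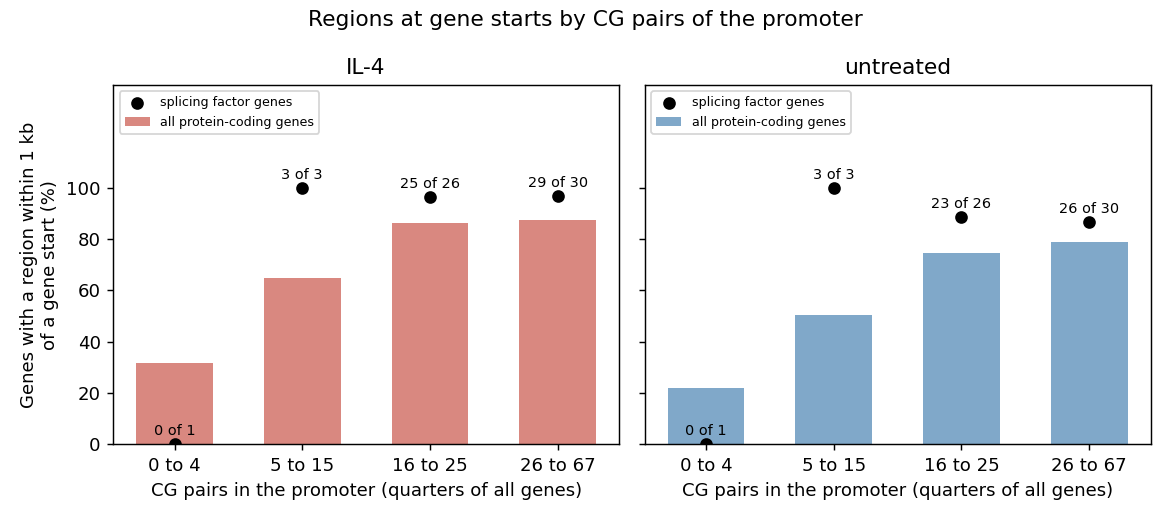
Share of genes (%) with a region within 1 kb of a gene start, in 4 groups of all genes by the number of CG pairs in the 300-base promoter, for splicing factor genes (black points, with counts) and all protein-coding genes (bars), IL-4 left and untreated right. In the groups with 16 or more pairs, all genes reach 86.2% and 87.4% with IL-4 and 74.5% and 78.9% untreated, and the splicing factor genes reach 25 of 26 and 29 of 30 with IL-4 and 23 of 26 and 26 of 30 untreated.

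Of 9 letter patterns searched, the ETS letters had the widest gap in percentage points between members and all genes when all promoters were counted. CCGGAAG on either strand stood in 25 of 81 member promoters (30.9%), a gene having up to 5 of them, against 11.6% of 21263 promoters. Among promoters with 16 or more CG pairs the shares were 34.3% of 70 and 19.9% of 9519. CCAAT stood in 48.1% of member promoters and 38.2% of all, GGGCGG in 63.0% and 46.2%, GCATGCGC in 4.94% and 3.52%, and TATAAA in 9.88% and 12.6%. AAGATGGC, the YY1 letters, stood in 3.70% and 3.05%, and TGACGTCA, the cAMP response element, in 2.47% and 2.23%. The STAT6 spacing, TTC and GAA with 4 bases between, stood in 3.70% of member promoters and 6.35% of all, and the STAT spacing with 3 bases between in 9.88% and 7.69%. Among promoters with 16 or more CG pairs, CCAAT stood in 48.6% of member promoters and 35.3% of all, a gap close to that of the ETS letters, and the STAT spacing in 10% and 5.22%, a larger ratio than theirs. The order of members and all promoters turned there for the other 6 patterns. GGGCGG stood in 68.6% and 78.3%, GCATGCGC in 5.71% and 6.35%, TATAAA in 7.14% and 4.30%, AAGATGGC in 4.29% and 4.72%, TGACGTCA in 1.43% and 3.67%, and the STAT6 spacing in 4.29% and 4.0%. A shorter pattern can lie within a longer one, and a match is a run of letters, not a bound site. By gene, the ETS letters were in 6 of 7 SF3A and SF3B genes with a promoter, 4 of 10 Snrp genes, 4 of 11 SR protein genes, 4 of 11 Prpf genes, 2 of 19 hnRNP genes and 0 of 2 U2af genes. The letters of the SF3 genes are shown in 30 bases each, on the gene's strand, with the match in capitals.
Sf3a1: agagggcgggaCCGGAAGtgctcccgcggc
Sf3a2: cgcctttgctcCCGGAAGggatcgcttcgt
Sf3a3: cccccaagacaCTTCCGGgacacgcggaac
Sf3b2: ggattacgcaaCCGGAAGtttctggaagta
Sf3b3: cccggtgggcgCTTCCGGgcttgcgaggtc
Sf3b6: cggtccgcaatCCGGAAGcgttctggagct
Counted from the start, the match began at -7 in Sf3a1, -76 in Sf3a2, -90 in Sf3a3, -229 in Sf3b3 and -70 in Sf3b6, and at -13 and -11 from the 2 starts of Sf3b2. Sf3b6 held another match, on the other strand, at -85. Sf3b1, the SF3 gene with the highest fold, held none.

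Members often lie next to another gene, so a region could not always be assigned to the member. Only 29 of 69 members (42.0%) had a window free of other protein-coding genes, against 68.4% of all genes. The strongest region also lay within 1 kb of another protein-coding gene for 31 of 66 members (47.0%) in the IL-4 library and 27 of 59 (45.8%) in the untreated library, against 19.7% of all genes in each. Hnrnpa2b1 shared its region with Cbx3, a pair whose common CpG island is known in human cells for keeping chromatin open. Hnrnpa1 shared its region with Cbx5, Srsf2 with Mfsd11, Srsf7 with Gemin6, Hnrnpk with Rmi1, Prpf4 with Cdc26 and Snrpd2 with Qpctl.

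The hnRNP genes had the strongest regions of the 6 families, with a median fold of 6.47 in the IL-4 library and 4.98 in the untreated library. Hnrnpc, which binds uridine tracts of nascent RNA, led both lists, with a pileup of 189 fragments and a fold of 9.88 in the IL-4 library, against 107 fragments and a fold of 7.24 in the untreated library. Its region lay at chr14:52103876-52104667 with IL-4 and chr14:52103826-52104703 untreated. Hnrnpa2b1, which packages and sorts RNA, had folds of 9.01 and 6.84, and its close relative Hnrnpa1, a general repressor of exons, had 6.95 and 6.30. Hnrnpk, which binds cytosine-rich RNA, had 6.82 in the IL-4 library against 3.96 in the untreated library. Hnrnpl, which binds CA repeats, had 6.35 and 5.77, and Hnrnpll, a regulator of CD45 splicing in T cells, had 7.65 and 5.50. Hnrnpu had the lowest fold of the family's marked genes in the IL-4 library, 3.74, and 2.62 in the untreated library. Hnrnph2, on chromosome X, had a fold of 3.97 with IL-4 and 2.41 untreated, the family's lowest untreated value. Each of these hnRNP genes had a higher fold in the IL-4 library, as most genes had. Hnrnpa1l2-ps2 had no region, the nearest lying 84.5 kb away in the IL-4 library and 84.7 kb in the untreated library, and its promoter had 3 CG pairs, the fewest of the members.

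Among the SR proteins, 10 of 11 had a region in each library, against 83.3% (IL-4) and 75.5% (untreated) of all genes, with median folds of 4.54 (IL-4) and 3.39 (untreated). Srsf2, also called SC35, had 134 fragments and a fold of 8.0 in the IL-4 library, against 82 fragments and 5.57 in the untreated library. Srsf1, the founding member of the family, had folds of 3.97 and 3.02, and Srsf3, the smallest, 4.21 and 3.29. Srsf5 had 5.34 and 3.22 and Srsf7 5.75 and 3.62, both activators of exon inclusion. Srsf6 had the lowest, 2.91 and 2.28. Srsf4 had 2 sites, one at the start with folds of 4.57 (IL-4) and 3.08 (untreated), and one 22466 bp (IL-4) and 22458 bp (untreated) downstream with folds of 3.97 and 3.49. The start was the stronger site with IL-4 and the downstream site the stronger one untreated. Srsf12 had no region within its window, although its promoter holds 26 CG pairs. The nearest region lay 3.96 kb from the gene in the IL-4 library (fold 2.67) and 1.07 kb in the untreated library (fold 2.28).

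The genes that define the intron's far end and branch point, 3 U2af and 9 SF3A and SF3B genes, all had a region with IL-4, as had 83.3% of all genes. U2AF binds the 3′ splice site, where U2af2 reads the pyrimidine tract and U2af1 the AG that follows. U2af1 had 93 fragments and a fold of 5.57 in the IL-4 library, against 41 and 2.82 in the untreated library. U2af1l4, a paralog of U2af1, had 91 fragments and 4.33, against 30 and 2.08. U2af2 had folds of 5.93 and 4.01, but at opposite ends of the gene. The IL-4 region, at chr7:5079899-5080395 (99 fragments), also lay within 1 kb of Epn1. The untreated region, at chr7:5060850-5062421 (62 fragments), also lay within 1 kb of Ccdc106. At this second place the IL-4 library had 108 fragments over a higher local background, and a fold of 4.61. SF3A and SF3B hold the branch point in the U2 snRNP, and 9 of their 9 genes had a region in the IL-4 library and 8 in the untreated library, against 83.3% and 75.5% of all genes. Sf3b1, the subunit that clasps the branch point, had 141 fragments and a fold of 8.0 in the IL-4 library, against 74 and 5.03 in the untreated library. Sf3a1 had a fold of 3.85 with IL-4 and 2.62 untreated, the lowest untreated value of these genes. Sf3b3 had the lowest in the IL-4 library, 3.74, and 2.95 in the untreated library.

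The genes for subunits of the same snRNP core differed widely. The Sm ring of the snRNPs is built from the products of Snrpb, Snrpd1, Snrpd2, Snrpd3, Snrpe, Snrpf and Snrpg. Snrpd2 had a fold of 7.51 in the IL-4 library and 4.43 in the untreated library, Snrpd3 had 5.89 and 4.5, Snrpe 4.80 and 2.95, and Snrpg 3.02 and 3.02. Snrpd1 had 2.73 and Snrpb 2.08 in the IL-4 library and no region in the untreated library. Snrpf had none in either, the nearest lying 2.79 kb away in the IL-4 library (fold 2.02) and 36.0 kb away in the untreated library (fold 2.08). The ring's genes therefore ran from no region to a fold of 7.51 in the IL-4 library. Snrpa, protein A of the U1 snRNP, had the family's highest fold, 7.73 in the IL-4 library and 5.90 in the untreated library. Snrpb2, a U2 protein, had a fold of 2.96 with IL-4 and 2.35 untreated, the family's lowest untreated value.

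Snrpn, the imprinted SmN gene of the Prader-Willi region, stood apart from the other marked members. It had 10 weak regions in the IL-4 library and 11 in the untreated library, with folds of 1.78 to 2.49 and 1.88 to 2.62. None had its summit within 1 kb of the 4 listed starts, and the nearest, 1336 bp downstream with IL-4 and 1059 bp downstream untreated, reached into the 1 kb window with a fold of 2.13 and 2.41. The richest of its promoters held 7 CG pairs.

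The Prpf genes encode proteins of the U4/U6.U5 tri-snRNP and of the complexes that activate and remodel the spliceosome. All 13 had a region in the IL-4 library and 10 (76.9%) in the untreated library, against 83.3% and 75.5% of all genes, so the untreated share was near that of all genes. Prpf19, a ubiquitin ligase that activates the spliceosome, had 4.39 and 3.29. Prpf18, which acts in the last step of splicing, had a fold of 5.10 with IL-4 and 2.75 untreated, the family's lowest untreated value. These regions lay inside the gene (chr2:4622058-4652135), at chr2:4636644-4637170 with IL-4 and chr2:4636730-4637067 untreated. Within 1 kb of a Prpf18 gene end the folds were only 2.37 with IL-4 and 2.15 untreated. Prpf8, the core of the U5 snRNP, had a fold of 5.10 (85 fragments) at its start in the IL-4 library and 3.22 (47 fragments) in the untreated library. A region past its far end, near Rilp, had 5.35 (98 fragments) with IL-4 and 1.81 (26 fragments) untreated, so its strongest region lay at different places in the 2 libraries.

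**Figure D4:**
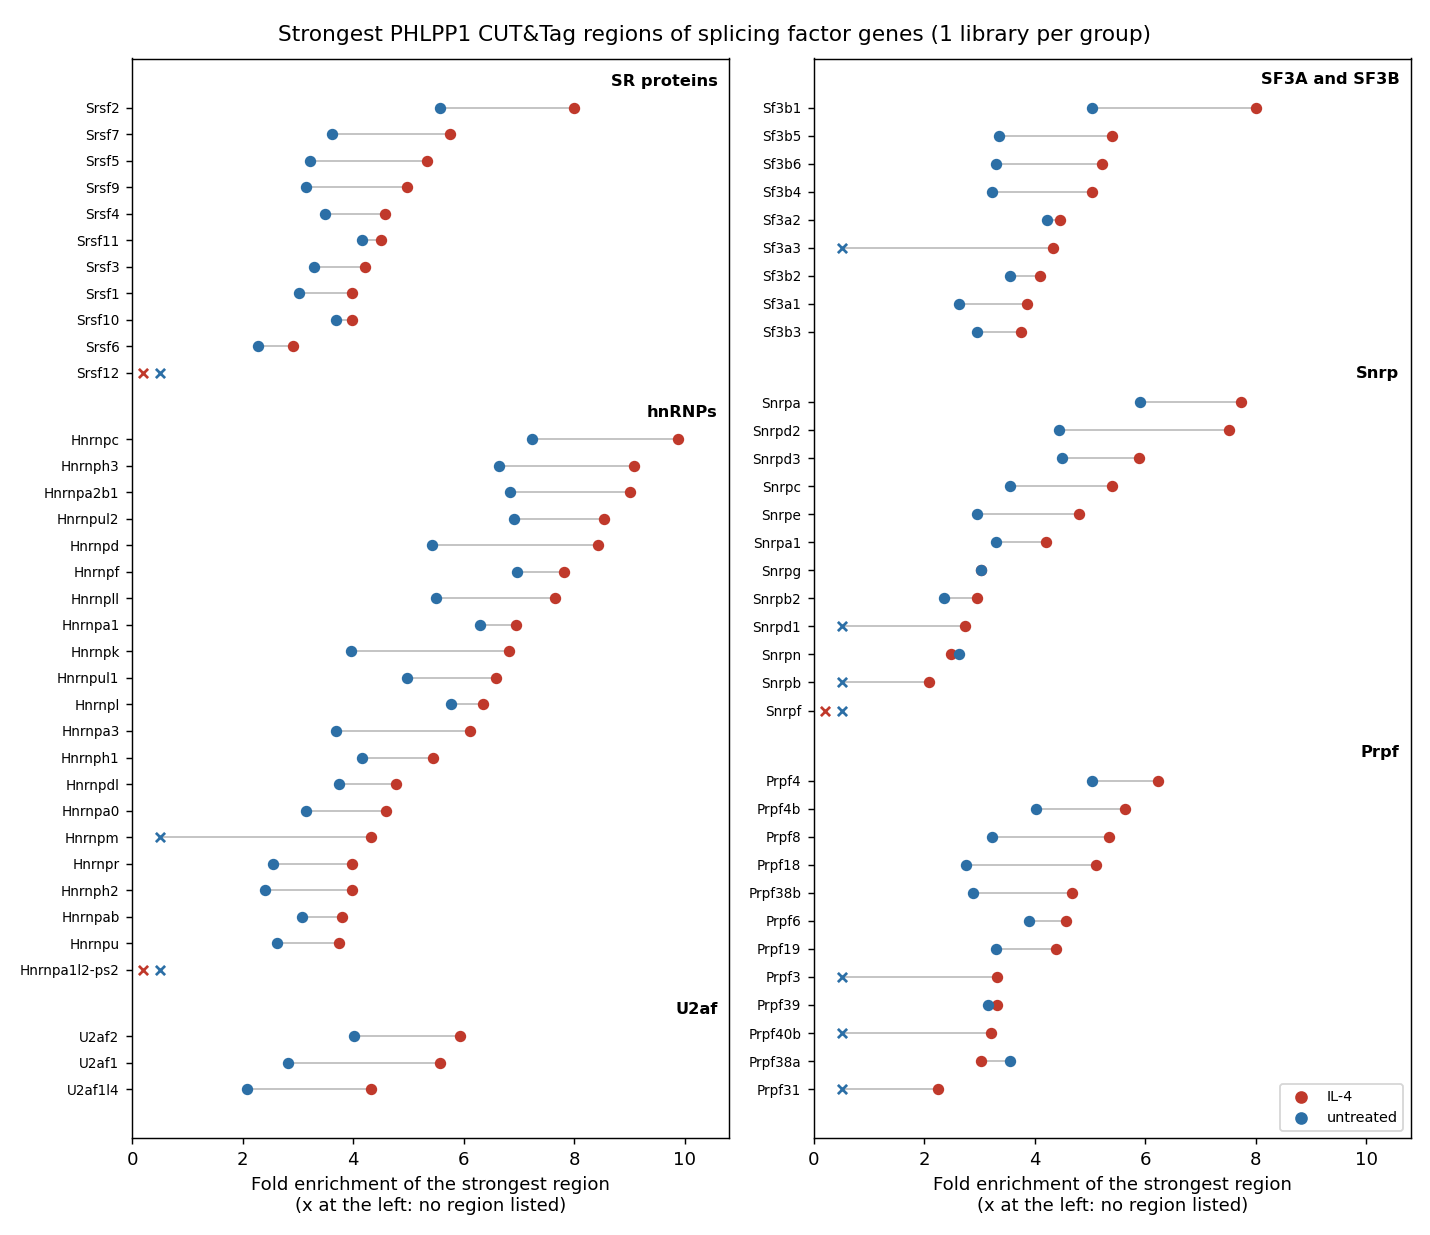
Fold enrichment (authors' value) of the strongest region over 68 of the 69 splicing factor genes, by family, in the IL-4 library (red) and the untreated library (blue), 1 library per group; a cross at the left means that no region is listed. The IL-4 fold is as high or higher for 56 of the 58 genes shown with both, the hnRNP genes reach the highest values (9.88 and 7.24 at Hnrnpc), and 7 genes have a red point only.

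Most members had higher pileups in the IL-4 library, and so did most genes. Of the 59 members with a region in both libraries, 58 had more fragments at the strongest summit in the IL-4 library and 57 a fold as high or higher. The fold was lower in the IL-4 library for Prpf38a, a protein of spliceosome activation, with 3.02 against 3.55, and for Snrpn, with 2.49 against 2.62. The median ratio of pileups, IL-4 over untreated, was 1.63 for the members (quartiles 1.44 to 1.84) and 1.55 for the 16128 genes with both (quartiles 1.30 to 1.79), over a background ratio of 1.14. Of the 59 members, 35 lay above the median of all genes and 24 below. For 55 of the 59 the exact 95% interval of the ratio held that median of 1.55. The strongest regions of the 2 libraries overlapped for 54 members. The counts of 58, 57, 55 and 54 members were not set against matching counts over all genes. With 59 intervals of 95%, a few can miss a common ratio by counting error alone. The interval lay above the median for U2af1l4 (3.03, 1.99 to 4.75), Snrpd2 (2.26, 1.68 to 3.08) and U2af1 (2.27, 1.55 to 3.36, a lower bound that rounds to the median), and below it for Prpf38a (0.962, 0.639 to 1.45). The next highest ratios were those of Prpf18 (2.12, 1.44 to 3.18) and Prpf8 (2.09, 1.46 to 3.02), and the next lowest those of Snrpn (1.08, 0.677 to 1.72), Snrpg (1.14, 0.743 to 1.74), Prpf39 (1.2, 0.793 to 1.81) and Srsf10 (1.22, 0.840 to 1.78). The Prpf18 ratio was taken at its region inside the gene. The ratios of Prpf8, Snrpn, U2af2, Srsf4 and Hnrnpdl compare different places, since their strongest regions did not overlap between the libraries. At the start of Prpf8 the pileups were 85 fragments with IL-4 and 47 untreated. The local IL-4 background was raised at U2af1l4 (20.2 fragments) and Snrpd2 (18.7), against 13.9 untreated at each, so their folds differed less than their pileups. The untreated region of U2af1l4 was also weak, with a −log10 q of 2.01, and lay within 1 kb of Psenen. The median ratio was 2.27 for the 3 U2af genes, 1.74 for 8 SF3A and SF3B genes, 1.70 for 19 hnRNP genes, 1.60 for 9 Snrp genes, 1.5 for 10 SR protein genes and 1.46 for 10 Prpf genes. By untreated fold, the members and all genes had median ratios of 1.78 and 1.47 under a fold of 3 (13 members), 1.60 and 1.60 from 3 to 4 (24 members), 1.60 and 1.62 from 4 to 6 (15 members), and 1.5 and 1.54 at 6 or more (7 members). In the 3 upper ranges the members' medians were thus close to those of all genes.

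**Figure D5:**
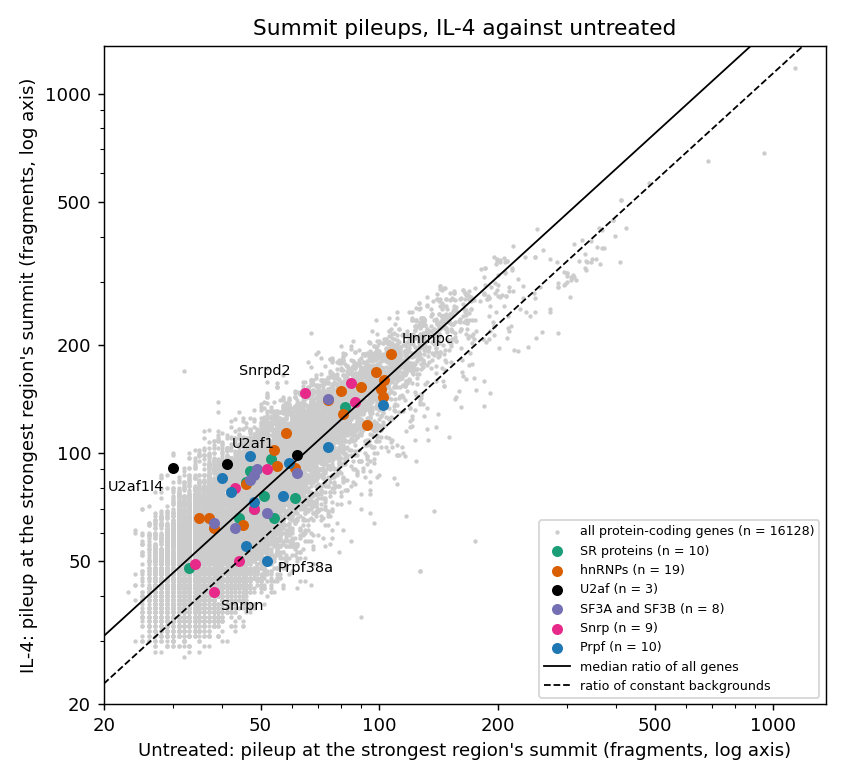
Fragments at the summit of each gene's strongest region in the IL-4 library (vertical, log axis) against the untreated library (horizontal, log axis), for the 59 splicing factor genes with both, coloured by family, over all 16128 protein-coding genes with both (grey). The solid line is the median ratio of all genes (1.55) and the dashed line the ratio of constant backgrounds (1.14); U2af1l4 lies farthest above the solid line among the splicing factor genes and Prpf38a farthest below.

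A region in the IL-4 library alone was found at 7 members (10.1%), against 9.60% of all genes, and one in the untreated library alone at 0 members, against 1.84% of all genes. The share of members marked with IL-4 alone was thus near that of all genes. The number was 13 of 69 members when only regions with a −log10 q of 5 or more counted, against 22.6% of all genes, and 14 at a fold of 3 or more, against 18% of all genes. Of the 10 members without an untreated region, 7 (70.0%, 34.8 to 93.3) had one in the IL-4 library, against 39.2% of all such genes. The 7 were Sf3a3, a subunit of SF3A, with 72 fragments and a fold of 4.33, Hnrnpm, a regulator of alternative exons, with the same values, the tri-snRNP genes Prpf3 (55 fragments, 3.32) and Prpf31 (37 fragments, 2.25), Prpf40b (53 fragments, 3.20), Snrpd1 (45 fragments, 2.73) and Snrpb (34 fragments, 2.08). Counted from a start, the IL-4 summits lay at -163 bp in Sf3a3, -8 bp in Hnrnpm, 64 bp in Prpf3, -218 bp in Prpf31 and 29 bp in Prpf40b. Their nearest untreated regions lay 5.26 kb from Sf3a3, 5.91 kb from Hnrnpm, 10.3 kb from Prpf3, 2.10 kb from Prpf31, 15.8 kb from Prpf40b, 4.68 kb from Snrpd1 and 20.0 kb from Snrpb. The untreated region nearest to Prpf31 had a fold of 8.30, well above the 2.25 at Prpf31 itself. Whether rows were left out of either list was not tested.

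Regions over the members were shared between the libraries more often than those over genes in general. In the IL-4 library 83 of 127 (65.4%, 56.4 to 73.6) overlapped an untreated region by at least 1 bp, against 45.8% of regions over all genes. In the untreated library 84 of 90 (93.3%, 86.1 to 97.5) overlapped an IL-4 region, against 68.6%. Those at starts were shared in 57 of 72 (79.2%) and 58 of 59 (98.3%), and those farther away in 17 of 41 (41.5%) and 17 of 22 (77.3%). The shares over all genes were not split in this way. Whether the members differ from all genes once position is matched was therefore not tested. Regions of 1 gene share their source, so these intervals are too narrow.

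The other splicing genes resembled the members. Of the 88, 86 had a region over the gene body in the IL-4 library and 81 in the untreated library. The shares of all genes were 83.3% and 75.5%. The other splicing genes had median folds of 4.75 and 3.55 and a median pileup ratio of 1.59 over 81 genes. None had a region in the untreated library alone, against 1.84% of all genes. In the IL-4 library alone, 9.60% of all genes had one. The 5 with one in the IL-4 library alone were Eftud2, a GTPase of the U5 snRNP (fold 3.62), Ddx46, a helicase of the U2 snRNP (2.91), Nono, a paraspeckle protein (2.67), Usp39, a tri-snRNP protein (2.25) and Rbmx, an hnRNP of chromosome X (2.13). Mbnl3 and Snu13 had none in either library.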

How the data were processed

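PHLPP1 CUT&Tag peak lists of 1 IL-4 and 1 untreated library of mouse alveolar macrophages were used. Bowtie 0.12.8, MACS2 2.2.7.1, DiffBind and mm10 are named, without roles, per the submitters' processing notes. Settings, and whether a control library entered, are not given in the sources used here. Read depth is likewise unknown. Each deposited list gives, per region, a fold ratio, a −log10 p and −log10 q, and a score equal to 10 times the −log10 p. The lowest −log10 p in the deposited lists was 2.03 with IL-4 and 2.0 untreated.

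Pileups recovered from fold and p were whole within 0.05 at the strongest region of all 66 and 59 members with one. They describe 1 library each. A gene was marked where a region shared at least 1 bp with its body and 1 kb each side, with 1 kb around either end, or with 1 kb around a start. Starts came from the RefSeq promoter table (GRCm38.p6), which matched 60 of 69 members. The strongest region is that of highest fold. Shares carry exact Clopper-Pearson intervals, and ratios of pileups carry the same interval of their 2 counts.

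The members, gene lists and letter patterns were chosen with earlier results of these data known. Named genes were a preset list of 21, the highest and lowest fold per family, the 5 highest and 5 lowest ratios, members without a region, and those with most regions. One gene that this rule names is not reported here. Other genes named were chosen after their values were seen. Stricter limits, other windows and overlaps were tried, and the CG groups, comparison families and fold ranges were added after the data were seen. The overlap and pileup steps were tested on simulated data. Python 3.11.15, numpy 2.4.6, pandas 2.3.3, scipy 1.17.1 and matplotlib 3.10.9 were used.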

Additional observations from a re-analysis of the deposited data

How the results depend on the processing

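No paired analysis was possible because each group held 1 library. The numbers of marked members (66 with IL-4, 59 untreated) and of members marked at an end (64 and 56) stayed within 1.5 times of these values with a −log10 q limit of 5, at a fold of 3 or more, with equally long lists, with windows of 0 and 5 kb, and with the summit inside the window. Of all genes, 83.3% were marked with IL-4 in the full lists, 69.4% with the q limit and 53.8% at a fold of 3 or more. Untreated, these shares were 75.5%, 47.7% and 36.8%. At an end they were 70.4%, 51.7% and 40.1% with IL-4, and 57.5%, 32.9% and 26.2% untreated. Members marked in the IL-4 library alone numbered 7 in the full lists (9.60% of all genes) and 13 with the q limit (22.6%). At a fold of 3 or more they numbered 14 (18% of all genes). The untreated library alone marked 0 members in every setting run, against 0.891% to 3.27% of all genes. Regions over members, 127 with IL-4 and 90 untreated, numbered 59 untreated with the q limit, and 76 and 50 at a fold of 3 or more. Restricting the members to the 29 with no other gene in the window left 28 marked with IL-4, 24 untreated, 4 in the IL-4 library alone, 27 and 23 at an end, and 45 and 32 regions, because fewer genes were counted. Of all such genes, 78.7% were marked with IL-4, 71.3% untreated and 9.76% in the IL-4 library alone. At an end, 64.6% of them were marked with IL-4 and 52.1% untreated. The median ratio of 1.63 was 1.72 there, against 1.5 for all such genes. It was 1.34 when the deposited fold replaced the pileup, against 1.25 for all genes. In the other settings it was 1.59 to 1.64, against 1.52 to 1.61 for all genes. At a fold of 3 or more the members lay below all genes (1.59 against 1.61). With the q limit they lay just above (1.6 against 1.58). With overlap of 50% of both regions, 74 IL-4 and 72 untreated regions were shared in place of 83 and 84. With 1 library per group, none of these differences has a replicate check.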

Other observations

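Sf3a3 and Hnrnpm had strong regions in the IL-4 library with none listed over the gene in the untreated library. Of the 7930 genes with an IL-4 region of fold 4 or more, 36 (0.454%) had no untreated region over the body or within 1 kb, and these 2 were among them, out of 47 members with such a fold. The Hnrnpm region also lay within 1 kb of Marchf2, while that of Sf3a3 met no other gene. Whether rows were left out of the untreated list was not tested. The 2 genes were singled out after their values were seen, and the difference has no replicate.

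The far end of Prpf8 differed more between the libraries than its start. The region near Rilp had 98 fragments with IL-4 and 26 untreated, while the start had 85 and 47. Its summits were not at one place, lying 23925 bp from the start with IL-4 and 23320 bp untreated. The IL-4 background there was 17.5 fragments, above the constant 15.9. The untreated region was weak, with a −log10 q of 1. This site was singled out after its values were seen, and the difference has no replicate.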
